A study of Homo sapiens with 8 samples.

Results

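Red cell genes were followed across tumour self-seeded cells (TSC), primary tumour cells (PC) and circulating tumour cells (CTC) of a tumour self-seeding model, in which tumour cells that have left a tumour return to it. The set holds 9 genes, picked by symbol from the 39533 rows of the count table: HBB, HBA1, HBD, ALAS2, SLC4A1, EPB42, GATA1, KLF1 and AHSP. They were picked with their levels in these libraries already known, so their own values are given as a description and carry no test. Of the 9, 4 passed the filter on low counts (HBB, HBD, ALAS2 and SLC4A1), 3 of them through the CTC libraries, and 3 (EPB42, GATA1 and KLF1) were at 0 in all 8 libraries.

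All 3 groups are HCT116, a human colorectal cancer cell line, with 3 TSC, 3 PC and 2 CTC libraries. By their labels, blood was the source of CTC, and the primary tumour was the source of both TSC and PC. The labels state no treatment, genotype or time, and the series title names liver cancer although the line is colorectal. The sources used here do not name a host animal. A single line stands for the tumour. No label says that replicates are separate animals or cultures, so the p-values rest on a spread between libraries that may be technical.

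Red cells are built around haemoglobin, a tetramer of alpha-type and beta-type globin chains that each carry a haem group. In the red cell lineage the transcription factors GATA1 and KLF1 act on the globin genes, on ALAS2, which encodes the erythroid form of the first enzyme of haem synthesis, and on the genes of the red cell membrane. Mature red cells have no nucleus but keep some RNA for a time after they enter the blood, most of it globin mRNA.

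The erythroid members did not move as a block (plot of the members by library). HBB and ALAS2 were high in both CTC libraries and at or near 0 in all TSC and PC libraries. SLC4A1 had 3 and 55 counts in CTC, the first at its library's floor, and at most 1 count elsewhere. HBD was present at a similar order of magnitude in every library, and the remaining 5 genes had 0 to 2 counts in each library.

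**Figure D1:**
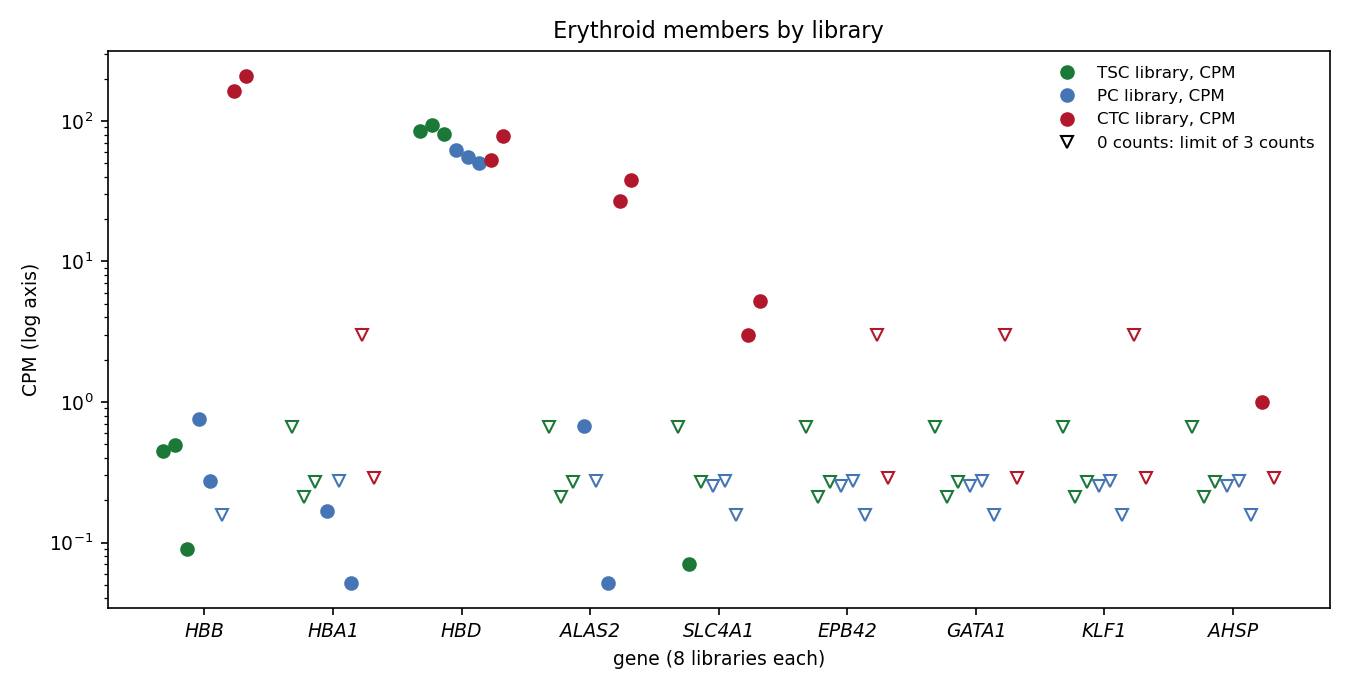
CPM (counts scaled to library size, log axis) of the 9 erythroid genes in each of 8 libraries, with filled circles for libraries with a count and open triangles at the level of 3 counts for libraries with 0. HBB reaches 164 and 209 CPM in CTC and stays at or below 0.754 CPM elsewhere, whereas HBD lies between 50.3 and 93.0 CPM in every library.

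Depth sets what a 0 means. The TSC libraries held 4578869 to 14717833 counts, the PC libraries 10864761 to 19264595, and CTC replicates 1 and 2 held 957607 and 10524069. With 3 counts as the floor, a count of 0 allowed up to 0.212 to 0.668 CPM in TSC, 0.156 to 0.276 CPM in PC, 2.99 CPM in CTC replicate 1 and 0.286 CPM in CTC replicate 2. Floors and count intervals cover counting error alone. Of all rows, 16547 were at 0 in every library. Among them was GYPC, a membrane protein gene that is also expressed outside red cells, and a 0 is therefore given as a count and not as a lack of expression.

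HBB encodes the beta chain of adult haemoglobin and lies on chromosome 11 (5225464 to 5227071, GRCh38). It had 2, 7 and 1 counts in TSC replicates 1 to 3, 9, 3 and 0 counts in PC replicates 1 to 3, and 164 and 2187 counts in CTC replicates 1 and 2. In CPM these were 0.446, 0.494 and 0.0904 in TSC, 0.754, 0.276 and 0 in PC, and 164 and 209 in CTC. Both CTC libraries lay above every other library, and TSC and PC overlapped.

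Pooled over each group, HBB was at 205 CPM of the library totals in CTC, 0.287 in PC and 0.327 in TSC. The CTC to PC ratio was 713 (95% exact interval 407 to 1382, counting error only), the CTC to TSC ratio 626 (340 to 1307) and the TSC to PC ratio 1.14 (0.441 to 2.88). PC replicate 1 held 9 of the 12 PC counts. Without it the CTC to PC ratio was 2056 (703 to 9979), on 3 PC counts. It was 384 without PC replicate 3, and 596 and 723 with CTC replicate 1 or 2 alone.

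ALAS2, on chromosome X (55009055 to 55030977), encodes the erythroid aminolevulinate synthase. It had 0 counts in all 3 TSC libraries, 8, 0 and 1 in PC replicates 1 to 3, and 27 and 401 in the CTC libraries, which corresponds to 26.9 and 38.2 CPM in CTC. As for HBB, both CTC libraries lay above all others. The CTC to PC ratio of pooled CPM was 173 (90.3 to 381). Without PC replicate 1, which held 8 of the 9 PC counts, the ratio rested on 1 PC count and was 1123 (201 to 44463). Without PC replicate 3 it was 105 (52.8 to 245), and without any other single library 128 to 177. Against TSC, where the pooled count was 0, ALAS2 was at least 380-fold higher in CTC, with the floor of 3 counts taken over the TSC group.

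ALAS1, the form of the same enzyme used in all tissues, gives a comparison within the pathway. It lay between 60.8 and 97.2 CPM in all 8 libraries and was not called between CTC and PC (edgeR, difference of −0.01 ± 0.21 on the log2 scale with its SE, 2 and 3 libraries, adjusted p = 0.977). Per 100 ALAS1 counts, ALAS2 had 44.3 (27.0 to 70.7) and 42.1 (37.4 to 47.3) counts in CTC replicates 1 and 2, 0.960, 0 and 0.0627 in PC replicates 1 to 3, and 0 in TSC. Both CTC libraries lay above all others in this ratio.

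SLC4A1 encodes band 3, the anion exchanger of the red cell membrane, and lies on chromosome 17 (44248390 to 44268135). Its counts were 0, 1 and 0 in TSC, 0 in all 3 PC libraries, and 3 and 55 in CTC, or 2.99 and 5.25 CPM in CTC. The CTC replicate 1 value sits at that library's floor. Over pooled counts SLC4A1 was at least 70.3-fold higher in CTC than in PC (floor of 3 counts over the PC group), and its ratio to TSC was 154 (26.6 to 6202), on 1 TSC count.

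ALAS2 kept a similar proportion to HBB in the CTC libraries in spite of the difference in depth. For SLC4A1 the 3 counts in CTC replicate 1 leave an interval too wide to tell. Per 100 HBB counts there were 16.5 (10.5 to 24.8) and 18.3 (16.4 to 20.4) ALAS2 counts and 1.83 (0.373 to 5.44) and 2.51 (1.89 to 3.29) SLC4A1 counts in CTC replicates 1 and 2, and the intervals overlap for both genes. In PC replicate 1 the corresponding number of ALAS2 counts was 88.9 per 100 HBB counts, from 8 and 9 counts.

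HBD encodes the delta chain of the minor adult haemoglobin and is the next gene to HBB on chromosome 11 (5232838 to 5234483). Its counts were 383, 1317 and 888 in TSC, 737, 601 and 968 in PC and 53 and 823 in CTC, or 85.3, 93.0 and 80.3 CPM in TSC, 61.7, 55.3 and 50.3 CPM in PC and 52.9 and 78.5 CPM in CTC. All 3 TSC libraries lay above all 3 PC libraries and above both CTC libraries, and CTC overlapped with PC. The fitted log2 differences were 0.63 ± 0.18 SE for TSC against PC (n = 3 and 3) and 0.28 ± 0.21 for CTC against PC (n = 2 and 3). HBD therefore showed no step between CTC and the other groups of the kind seen for its neighbour HBB.

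Per kilobase of transcript (GENCODE 29 transcripts matched to RefSeq, 628 bases for HBB and 785 for HBD), HBB was at 260 and 332 CPM per kb in the CTC libraries and HBD at 67.3 and 99.99 CPM per kb. In PC and TSC the order was the reverse, with HBB at 0 to 1.20 and HBD at 64.0 to 118 CPM per kb. Per 100 HBD counts there were 309 and 266 HBB counts in CTC replicates 1 and 2, and 0 to 1.22 in the other libraries. The transcripts are related in sequence: 17 of 579 windows of 50 bases in HBB (2.94%) also occur in HBD, with a longest shared run of 56 bases. The sources used here do not say how reads with several positions were counted.

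The rest of the beta-globin cluster was read in the same way (plot of the cluster). HBE1, the embryonic epsilon chain gene, had 79 to 325 counts in TSC, 224 to 513 in PC and 30 and 225 in CTC, or 17.6 to 28.4, 18.8 to 26.6 and 21.5 to 29.9 CPM. It overlapped between all groups and was not called for CTC against PC (0.13 ± 0.29, adjusted p = 0.827) or TSC against PC (0.04 ± 0.24, adjusted p = 0.973). HBG2, a fetal gamma chain gene, had 1 to 47 counts per library and was not called either (CTC against PC −2.15 ± 1.16, adjusted p = 0.278). HBG1, its near copy, had 1 count in PC replicate 3 and 0 elsewhere, and the pseudogene HBBP1 was at 0. HBG1 and HBG2 share 366 of the 730 windows of 50 bases of HBG1 (50.1%), so the split of counts between them is uncertain.

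On the far side of HBE1 the olfactory receptor genes OR51B4 and OR51B5 also had counts in every library, at 5.71 to 12.4 and 13.1 to 26.9 CPM, while OR51V1, on the other side of HBB, was at 0 in all. Of 5 tested genes beside the cluster 0 were called for CTC against PC by edgeR, with 2 at an unadjusted p under 0.05. Over all 14255 tested genes 3.92% were called and 3362 had an unadjusted p under 0.05. In GENCODE 29 the HBE1 gene model runs from 5268345 to 5505652 and spans OR51B4 and OR51B5, which lie on the same strand. The HBG2 model, from 5253190 to 5505605 on that strand, overlaps all of these. On the same strand the HBD model, from 5232678 to 5243657, spans HBBP1. Without a stated annotation and counting rule, the counts of such overlapping genes cannot be told apart with certainty. Among the genes of the cluster named here, HBB was the one with both CTC libraries far above all others.

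**Figure D2:**
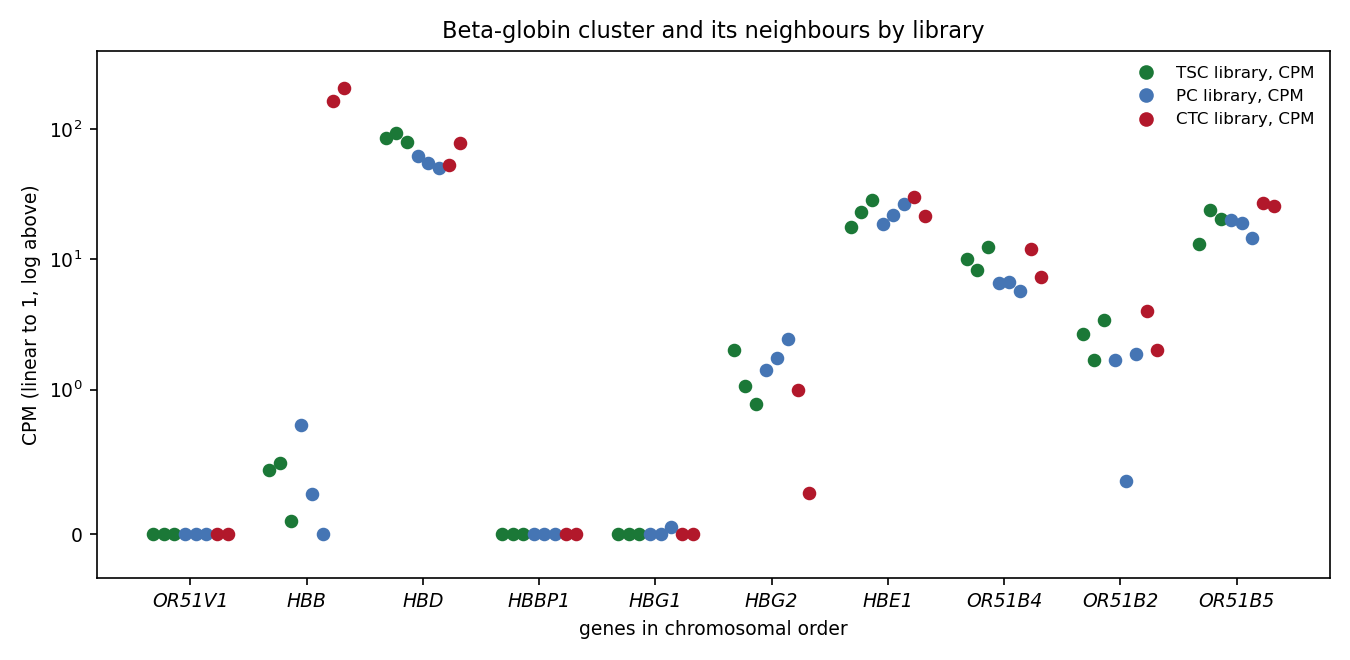
CPM in each of 8 libraries for the beta-globin cluster and its neighbours in chromosomal order (axis linear to 1 and logarithmic above). HBB separates both CTC libraries from the others, whereas HBD, HBE1, OR51B4 and OR51B5 have counts in all libraries and OR51V1 and HBBP1 are at 0.

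The alpha-type globins gave almost no counts. HBA1, which encodes the alpha chain and lies on chromosome 16 (176680 to 177522), had 2, 0 and 1 counts in PC and 0 in all TSC and CTC libraries, and HBA2 was at 0 in all 8. In CTC replicate 2 the 0 for HBA1 stood beside 2187 counts of HBB and allowed up to 0.286 CPM. HBA1 and HBA2 are near copies: 431 of 528 windows of 50 bases in HBA1 (81.6%) occur in HBA2, with a shared run of 480 bases. A count of either is uncertain, and how reads that match both were counted is not stated. HBM and HBQ1 were at 0, and HBZ had 4 counts in TSC replicate 3. The genes beside the alpha cluster had counts in every library. Of the 7, 0 were called for CTC against PC by edgeR, beside 3.92% of all 14255 tested genes. At an unadjusted p under 0.05 there were 2 of the 7, beside 3362 of all tested genes.

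AHSP, on chromosome 16 (31527900 to 31528803), encodes the chaperone of free alpha chains. It had 1 count in CTC replicate 1 and 0 in the other 7 libraries, so no difference between groups was detectable at this depth. EPB42 (chromosome 15, 43197227 to 43225737), the gene of the membrane skeleton protein 4.2 that binds band 3, was at 0 in all libraries. The same held for GATA1 (chromosome X, 48786590 to 48794311) and KLF1 (chromosome 19, 12884422 to 12887201). For these 3 genes CTC replicate 2 sets the tightest limit in blood, at 0.286 CPM, against 209 CPM of HBB and 38.2 CPM of ALAS2 in the same library.

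RefSeq start regions were at hand for 5 of the 9 members (ALAS2, EPB42, GATA1, HBD and KLF1). The 250 bases before the start that the RefSeq table gives (GRCh38.p14, minus strand) are printed for ALAS2, high in CTC, for HBD, present in every library, and for EPB42, at 0 in every library, because the 3 genes differ in expression here. Capitals mark GATA motifs (A or T, then GATA, then A or G) and CACCC, each on either strand, and no TATAAA was found in these 3 windows. The regions are chrX:55030978-55031227 for ALAS2, chr11:5234484-5234733 for HBD and chr15:43221019-43221268 for EPB42. The EPB42 region lies inside the full span of the gene given above, so the table's start is not the outermost one.
ALAS2: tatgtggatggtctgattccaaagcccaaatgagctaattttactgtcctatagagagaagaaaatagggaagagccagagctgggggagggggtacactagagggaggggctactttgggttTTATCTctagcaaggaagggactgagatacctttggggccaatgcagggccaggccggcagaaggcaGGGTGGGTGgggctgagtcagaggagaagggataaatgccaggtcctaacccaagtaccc
HBD: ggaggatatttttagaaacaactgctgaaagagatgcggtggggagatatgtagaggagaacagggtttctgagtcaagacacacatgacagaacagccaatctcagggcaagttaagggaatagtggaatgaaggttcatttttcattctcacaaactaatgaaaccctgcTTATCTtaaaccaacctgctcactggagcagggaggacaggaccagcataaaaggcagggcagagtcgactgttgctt
EPB42: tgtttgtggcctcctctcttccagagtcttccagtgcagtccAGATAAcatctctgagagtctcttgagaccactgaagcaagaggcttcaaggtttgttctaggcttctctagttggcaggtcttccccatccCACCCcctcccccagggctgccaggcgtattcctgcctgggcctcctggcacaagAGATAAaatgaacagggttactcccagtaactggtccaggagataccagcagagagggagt
ALAS2 has 1 GATA match and 2 CACCC matches that overlap each other by a base, HBD has 1 GATA match and no CACCC match, and EPB42 has 2 GATA matches and 1 CACCC match. GATA1 has 0 GATA and 4 CACCC matches and KLF1 2 and 0. Of 35116 start regions of the same length, 22.3% hold a GATA motif, 54.7% a CACCC motif and 10.7% a TATAAA motif. A match describes the letters only.

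Of the 4 tested members, 3 passed the threshold for CTC against PC and all 3 were higher, in a comparison in which 3.92% of 14255 tested genes were called, 1.4% higher and 2.52% lower in CTC. The members' levels in all 3 groups were known when they were picked, and nothing is read from this count or from those of the other comparisons. For TSC against PC 0 of 4 were called by edgeR (2 at an unadjusted p under 0.05), against 0.505% of all tested genes, 0.224% higher and 0.281% lower in TSC. For CTC against TSC 2 of 4 were called, both higher, against 0.898% of all tested genes, 0.526% higher and 0.372% lower in CTC.

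Genes of the red cell programme outside the 9 members, 86 in 6 lists, were then examined. All 86 were in the table, 16 at 0 in every library, 12 with counts too low to be tested and 58 tested. For CTC against PC 1 of the 58 was called higher and 0 lower (1.72% called, against 3.92% of all tested genes). At an unadjusted p under 0.05 there were 19 of the 58, beside 3362 of all 14255 tested genes. The same shares of all tested genes stand beside the CTC against PC counts of each list below. The log2 fold change was positive for 28 of 58, with a median of −0.01, against a median of −0.04 over all tested genes. For TSC against PC 0 of 58 were called by edgeR, with 6 at an unadjusted p under 0.05 (1469 of all 14255), 1 called by DESeq2 and 2 by limma-voom (median 0.04). For CTC against TSC 1 of 58 was called (median −0.02), with 11 at an unadjusted p under 0.05 (2379 of all 14255).

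The called gene was IKZF1, which encodes a transcription factor of lymphoid and other blood cells. It had 0 counts in TSC, 1, 0 and 0 in PC and 5 and 40 in CTC, and edgeR gave an adjusted p of 0.0265 against PC and 0.0486 against TSC. IKZF1 passed the filter on low counts through the CTC libraries alone, where it is high, so its call is given as a description. Over pooled counts it was at least 39.9-fold higher in CTC than in TSC, and its CTC to PC ratio was 164 (27.9 to 6609), on 1 PC count. The call against PC was lost without PC replicate 1, 2 or 3 (adjusted p = 0.0693, 0.095 and 0.108), and with a stricter filter or without CTC replicate 2 the gene was not tested. The call against TSC was lost without any single library other than TSC replicate 1 and CTC replicate 2 (adjusted p = 0.0571 to 0.174), and the gene was not tested without CTC replicate 2.

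Of the haem synthesis genes other than ALAS2, 12 of 13 had counts in every library, and 0 of these 12 were called for CTC against PC by edgeR (3 at an unadjusted p under 0.05). The list summed to 628 to 673 CPM in CTC, 659 to 699 in PC and 704 to 786 in TSC. CPOX, which encodes coproporphyrinogen oxidase, was at 159 ± 37.9 CPM (SD) in CTC and 248 ± 2.65 in PC (log2 −0.66 ± 0.19, adjusted p = 0.0612 by edgeR). It was called lower in CTC by DESeq2 (adjusted p = 0.0194), limma-voom (adjusted p = 0.00783) and edgeR with no filter (adjusted p = 0.0210). With only the 2 groups edgeR also called it (adjusted p = 0.0358). It was not called by edgeR with the replicate block (adjusted p = 0.117) or without any 1 PC library (adjusted p = 0.151 to 0.170). UROD, chosen after its values were seen, went the other way (log2 0.81 ± 0.24, adjusted p = 0.0663 by edgeR). Of the 12 genes, 7 had a positive log2 fold change, with a median of 0.13. The mitochondrial iron importer gene SLC25A37 (0.17 ± 0.22, adjusted p = 0.68) was not called.

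Of 12 iron uptake and storage genes 0 were called for CTC against PC by edgeR, beside 3.92% of all 14255 tested genes. At an unadjusted p under 0.05 there were 6, beside 3362 of all tested genes. The log2 fold change was positive for 10 of the 12, with a median of 0.50. Over all tested genes it was positive for 6754, with a median of −0.04. TFRC, the transferrin receptor gene, was at 219 and 317 CPM in CTC and 162 to 182 CPM in PC (0.66 ± 0.21, adjusted p = 0.0800 by edgeR). It passed by DESeq2 (adjusted p = 0.0318), limma-voom (adjusted p = 0.0205) and edgeR with only the 2 groups (adjusted p = 0.0336). By edgeR it did not pass with the replicate block (adjusted p = 0.204) or without any 1 PC library (adjusted p = 0.158 to 0.203). FTH1, the ferritin heavy chain gene, was at 994 ± 1.60 CPM in CTC and 967 ± 75.7 in PC (adjusted p = 0.896).

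Among 11 tested membrane genes 0 were called for CTC against PC by edgeR (4 at an unadjusted p under 0.05), and 3 were positive. Of all 14255 tested genes 6754 were positive. SPTB, the beta-spectrin gene, was at 5.98 and 8.30 CPM in CTC, 2.01 to 11.03 in TSC and 17.7 to 24.7 in PC (CTC against PC −1.50 ± 0.51, adjusted p = 0.0989). GYPB and the Rh-associated glycoprotein gene RHAG, which encode red cell surface proteins, were at 0 in all 8 libraries.

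Of the 9 tested transcription factors and cofactors, IKZF1 was the call against PC and the other 8 were not called. GATA2, the factor of early progenitors, was at 9.05 ± 4.33 CPM in CTC and 19.2 ± 0.686 in PC (adjusted p = 0.174), and MYB was at 5.12 and 10.3 CPM on average (adjusted p = 0.223). GFI1B, a repressor of the erythroid and megakaryocytic lineages chosen after its values were seen, had 14 counts in CTC replicate 2 and 0 in the other 7 libraries, and TAL1, a partner of GATA1, had 16 counts there, 0 in CTC replicate 1 and 0 to 9 elsewhere. Neither was tested.

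Red cell enzymes and late erythroid genes had 0 calls of 12 for CTC against PC by edgeR (3 at an unadjusted p under 0.05). CA1, HEMGN and TRIM58, late erythroid genes, were at 0 in all libraries.

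**Figure D3:**
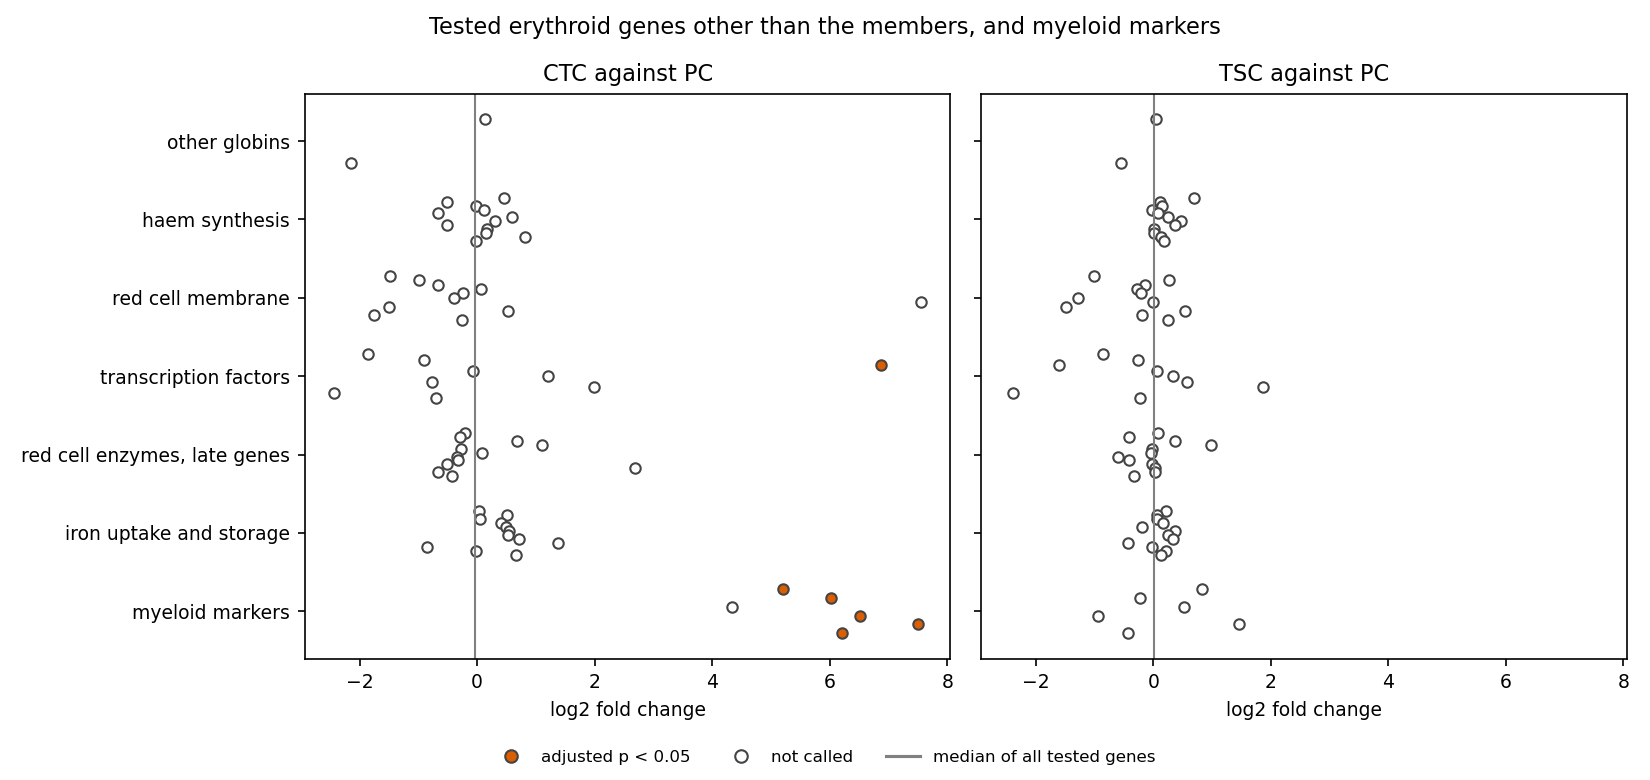
Log2 fold changes of the 58 tested erythroid genes that are not members, by list, with myeloid markers below, for CTC against PC and TSC against PC; orange points passed an adjusted p of 0.05 by edgeR and the grey line is the median of all tested genes. In the erythroid lists IKZF1 is the orange point, in the CTC panel.

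Among markers of other cell types, the myeloid and lymphoid sums were, like HBB, higher in both CTC libraries than in all others. The 12 myeloid markers summed to 361 and 139 CPM in CTC replicates 1 and 2, where HBB was at 164 and 209 CPM. Their sum was 3.27 to 3.69 CPM in PC and 3.03 to 5.70 in TSC. In CTC 7 and 8 of the 12 had a count, and 5 of 6 tested were called higher against PC by edgeR, beside 1.4% of all tested genes. Some of these, such as LYZ and ITGAM, passed the filter on low counts through the CTC libraries, where they are high. Nothing is therefore read from this count. S100A8, S100A9, S100A12 and MPO, defining granulocyte and monocyte genes, were at 0 in all libraries. Their part in the HBB result was not tested. The lymphoid list of 9 reached 8.77 to 31.9 CPM in CTC, of which PTPRC gave 7.63 to 31.9, with at most 0.754 CPM elsewhere and CD3E, CD2 and NKG7 at 0. The 9 platelet markers summed to 1.91 to 4.99 CPM in CTC, with PF4, PPBP and GP9 at 0 in all libraries. The HCT116 epithelial markers summed to 5171 and 7686 CPM in CTC and to 6005 to 9297 CPM in PC and TSC, with CDX1 at 0 in all libraries. Hepatocyte markers were at 0 in CTC, and PC replicate 1, which held most PC counts of HBB and ALAS2, had counts for 5 of these 6 markers, 1.68 CPM in sum. The sums were 0.276 and 0.831 CPM in PC replicates 2 and 3 and 0.565 to 0.724 CPM in TSC. The part of these markers in the HBB and ALAS2 counts was not tested. In bulk libraries, fewer cells of a type and less RNA per cell cannot be told apart.

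The blood genes did not all keep 1 ratio to HBB. Per 100 HBB counts, ITGAM, a myeloid integrin gene, had 20.7 (13.9 to 30.1) and 19.8 (17.8 to 21.9) counts in CTC replicates 1 and 2. LYZ, the lysozyme gene, had 57.9 (44.5 to 75.0) and 11.2 (9.78 to 12.8), and CYBB, a phagocyte oxidase gene, 54.3 (41.4 to 70.7) and 15.5 (13.7 to 17.3). LYZ and CYBB thus differed between the CTC libraries beyond counting error, with no overlap of the intervals, while ALAS2, SLC4A1 and ITGAM did not separate. These are single libraries and the comparison is between them.

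**Figure D4:**
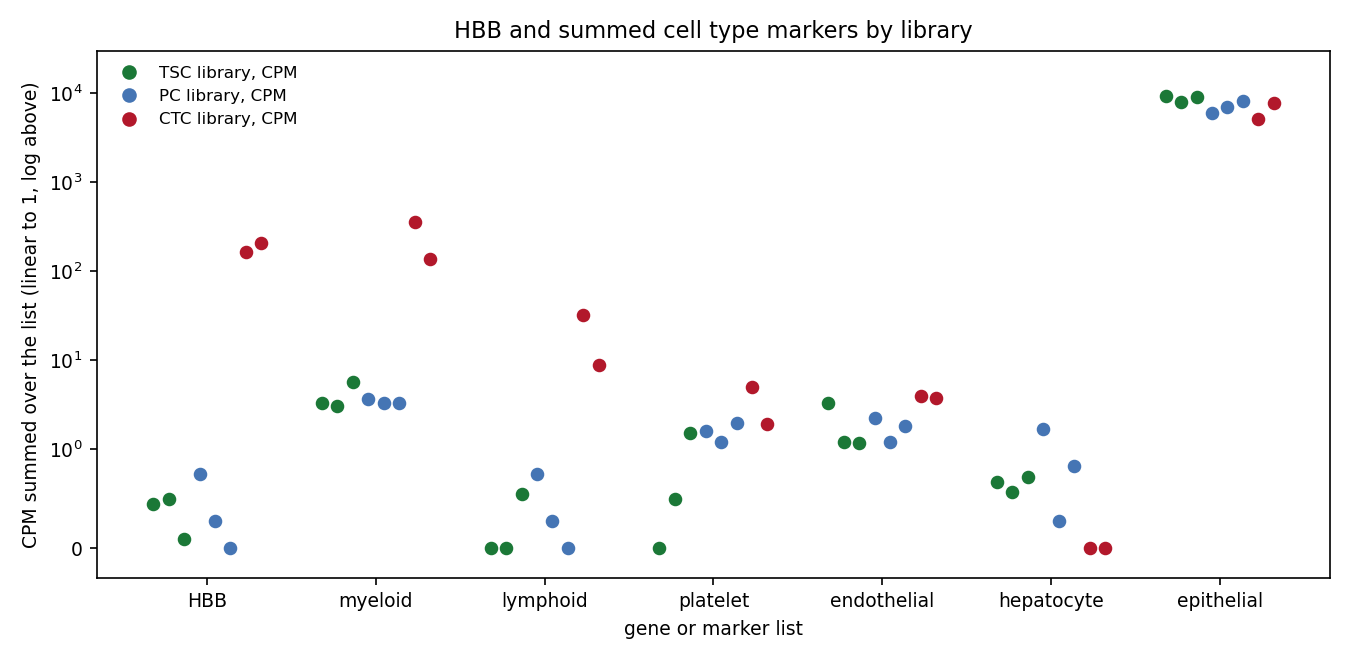
CPM of HBB and summed CPM of 6 marker lists in each of 8 libraries (axis linear to 1 and logarithmic above). HBB and the myeloid and lymphoid sums set both CTC libraries above all TSC and PC libraries, and the epithelial sum lies between 5171 and 9297 CPM everywhere.

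Likeness to HBB over the 8 libraries was measured by Pearson's r of log2 CPM, as a description. Among members, ALAS2 (r = 0.98) and SLC4A1 (r = 0.98) followed HBB and HBD did not (r = −0.06). Among 11646 other tested genes with a mean log2 CPM of at least 1, the 10 most like HBB had r from 0.962 to 0.976: QKI, CSPP1, TM9SF3, FAM200B, PDE2A, OXNAD1, RBM26, TAF12, ITCH and LZTFL1. QKI, an RNA-binding protein gene, was at 92.8 and 72.0 CPM in CTC and 22.3 to 31.6 CPM in the other libraries. The minimum level leaves out genes near 0 outside CTC, among which ALAS2 and SLC4A1 themselves would fall, so the 10 are the most like HBB among better expressed genes only. The value of r records the shape over libraries that share depth differences, not the size of the step.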

How the data were processed

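Libraries were made from total RNA after depletion of ribosomal RNA, per the labels' protocols. The authors deposited 1 table of raw counts, whole numbers for each gene and library. STAR 2.5.3a, featureCounts 1.5.3 and the build hg38 are named in the submitters' processing notes. The sources used here do not give the annotation, the strand setting, the handling of reads with several positions or any removal of host reads. All 8 columns match a sample by its labels, and 0 of 28 library pairs agreed within sampling noise. The 9 members and all lists were chosen with earlier results of these data known.

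Counts were fitted with edgeR 4.0.16 in R 4.3.3 (filterByExpr, TMM, glmQLFit, glmQLFTest, all libraries in 1 fit with group as the factor, 14255 genes tested), with Benjamini-Hochberg adjustment over all of them and a call at an adjusted p under 0.05. SE is the log2 fold change divided by the square root of F. CPM uses TMM-scaled totals of tested genes, and pooled ratios use library totals. Pooled ratios have exact conditional 95% intervals. Alternatives were DESeq2 1.42.0 (size factors, Wald test), limma-voom (limma 3.58.1), other filters, the 2 groups alone, a replicate block, each library left out and, added after seeing the data, pooled HBB and ALAS2 ratios without single libraries. Scripts were tested on simulated counts. Named genes are the members, all globins, called listed genes and up to 4 of each list with the most counts; others, among them all those named for low counts or as markers, were chosen after their values were seen. Likeness takes the 10 highest Pearson r with a prior count of 2. Gene positions and start regions are RefSeq's (GRCh38.p14), the same build as hg38. Some listed genes are counted in their lists but not reported here by name.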

Additional observations from a re-analysis of the deposited data

How the results depend on the processing

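The counts of called genes depended on the setting. The mean HBB level stayed within 1 SD of its group's libraries with CPM per library total. With each library left out it was 164 to 209 CPM in CTC and 0.268 to 0.470 in TSC. In PC it was 0.138 (without PC replicate 1) to 0.515, against 0.343 over all 3 PC libraries. These ranges are given without a limit, because leaving out 1 of 2 or 3 libraries cannot move the mean by 1 SD. Members with a count went from 3 to 2 in TSC without TSC replicate 2 and from 5 to 4 in CTC without CTC replicate 1, and stayed at 4 in PC. For CTC against PC 559 genes were called, against 1535 with no filter, 1125 by DESeq2, 1660 by limma-voom, 1409 with only the 2 groups and 261 with the replicate block, and 35 to 1575 with 1 library left out. For TSC against PC 72 were called, against 355 with no filter, 191 by DESeq2, 553 by limma-voom and 128 with only the 2 groups, and 10 to 153 with 1 library left out. For CTC against TSC 128 were called, against 728, 390, 440 and 82 in the same order and 61 with the replicate block, and 36 to 696 with 1 library left out.

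Of the 58 tested erythroid genes that are not members, 1 was called for CTC against PC, against 8 with no filter, 0 with a stricter filter, 6 by DESeq2, 11 by limma-voom, 9 with only the 2 groups and 0 with the replicate block. With 1 library left out it was 0 to 12, with 12 without TSC replicate 1, 5 without CTC replicate 1, 4 without TSC replicate 2 and 0 without CTC replicate 2 or any PC library. For TSC against PC 0 were called, against 1 with no filter, 1 by DESeq2 and 2 by limma-voom, and 0 without any single library. For CTC against TSC 1 was called, against 4 with no filter, 0 with a stricter filter, 3 by DESeq2, 4 by limma-voom, 0 with only the 2 groups and 0 with the replicate block, and 0 to 4 with 1 library left out. The cause was not tested. IKZF1 lost its call under the block (adjusted p = 0.123 against PC and 0.205 against TSC). The labels give replicate numbers but no shared source, and deviations of same-numbered libraries correlated from −0.134 to 0.0943, so the numbers were not taken as pairs. Among the genes named and run, no called difference changed sign; the difference of ALAS1 for CTC against PC, not called, lay near 0 on either side. Pooled ratios without single libraries stand beside HBB and ALAS2. CTC replicate 1, with 957607 counts, limits what low genes can show in CTC.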
